A study of Mus musculus with 28 samples.

Results

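Regulatory T cells (Tregs) that carried high surface OX40 were compared between B16 melanomas and spleens of mice. The members were taken from the labels alone, as the samples whose OX40 status is plus: 4 from tumors (mice 1 to 4) and 3 from spleens (mice 1 to 3). They make up 7 of the 14 mouse samples and 14 of the 28 libraries of the series, because each mouse sample is the mean of 2 libraries. All mice were of the Foxp3-GFP strain, in which the Foxp3 locus marks Tregs with green fluorescent protein, and all received B16 cells, a mouse melanoma line, in the skin. Between 7 and 10 days later, GFP+ cells with high OX40 were sorted from dissociated tumors and spleens after staining for CD45, CD3, CD4 and OX40. The spleens therefore came from implanted animals, with no tumor-free group, and the labels do not state the age or sex of the mice. The remaining 7 samples, GFP+ cells with low OX40 from the same tissues, enter the shared estimate of spread and the last comparison.

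Tregs restrain other lymphocytes and depend on the transcription factor Foxp3 and on interleukin-2 taken up through CD25. OX40, encoded by Tnfrsf4, belongs to the TNF receptor family and gives costimulatory signals to activated T cells and Tregs. Tregs that leave lymphoid organs for tumors or other tissues are known to take on an effector state, with other homing receptors, secreted mediators and fuel use than the Tregs that recirculate through spleen and lymph node.

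Levels are given as CPM (counts divided by library size) and differences as log2 fold changes, tumor minus spleen, from a limma fit over 12512 genes with Benjamini-Hochberg adjustment; a gene was called at an adjusted p under 0.05, and "rose" or "fell" is used of called genes. Each mouse sample held 22441818 to 29647993 estimated counts, so 3 counts corresponded to 0.104 to 0.13 CPM. The spread between the 2 libraries of a mouse sample was close to sampling noise (median chi-square per gene 0.495 to 0.562, against 0.455 for pure sampling), and they were counted as 1 sample. Tissue separated the samples along the first principal component, which held 68.0% of the variance, while the second, with 11.1%, set tumor mouse 1 apart from the other tumor samples. Tumor and spleen differed at 8072 genes, 64.5% of those tested: 3792 (30.3%) were higher in tumor and 4280 (34.2%) lower, with a median over all genes of -0.13. Past a log2 fold change of 3 in size, 203 genes were higher and 812 lower. With calls this common, a count within a gene list is read against these shares. P-values measure only the spread between these samples; mice are numbered, but nothing more is said of how the animals were handled.

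**Figure D1:**
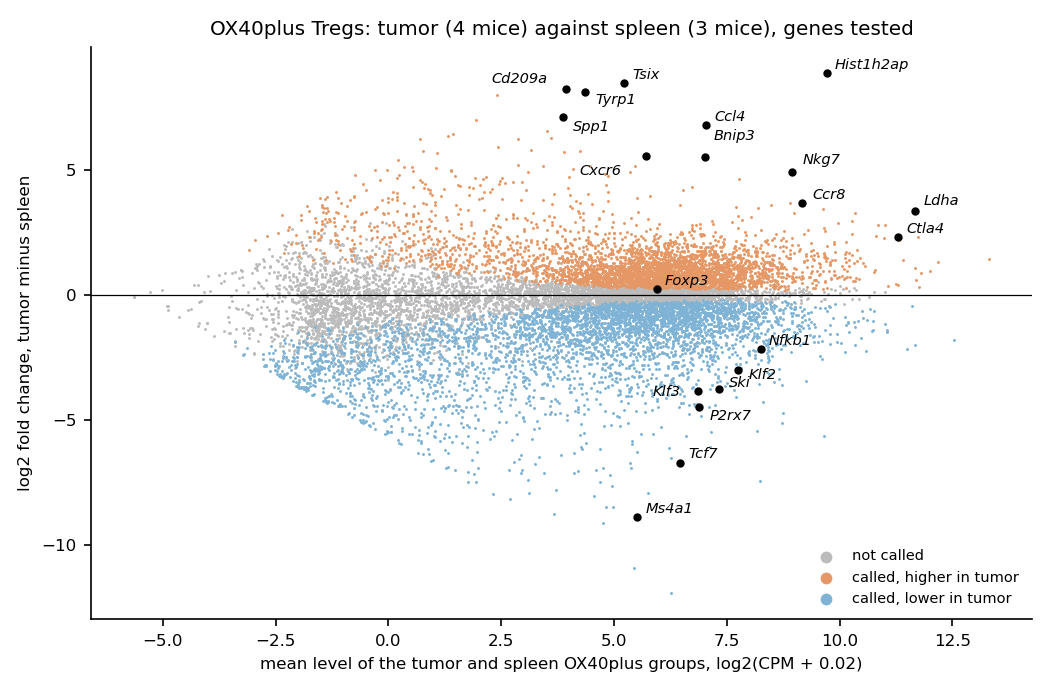
Each point is 1 of the 12512 genes tested, with the mean level of the 2 OX40plus groups on the x axis (log2 CPM) and the log2 fold change, tumor minus spleen, on the y axis; orange and blue points were called higher and lower. Labelled genes run from Hist1h2ap, at 8.87, to Ms4a1, at -8.88.

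The marker genes of the sort were present in every sample. The 7 T cell markers summed to 4811 to 5072 CPM in tumor and 3481 to 4244 CPM in spleen, and the 6 Treg markers to 8518 to 9408 and 4150 to 4471 CPM. Markers of other cells differed between the tissues. The 5 B cell markers in the table summed to 353 to 517 CPM in spleen and to 0.355 to 0.652 CPM in tumor. No tumor sample came near the lowest spleen sample. The 8 melanocyte markers, which B16 cells express, went the other way, from 17.2 to 20.1 CPM in spleen to 101 to 239 CPM in tumor, highest in mouse 4. Tyrp1, a melanin synthesis enzyme, was at 35, 18.1, 45.8 and 63.6 CPM in tumor and 0.0791, 0.252 and 0.0395 CPM in spleen. Dct, another enzyme of that pathway, was at 16.6, 25.4, 23.4 and 51.3 CPM in tumor and 0.666, 0.88 and 0.246 CPM in spleen.

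Macrophage or monocyte markers were lower in tumor as a sum (54.2 to 67.6 against 83.1 to 199 CPM, the highest in spleen mouse 3), and C1qa, a complement subunit made by macrophages, fell to 0.416, 1.47, 1.99 and 3.45 CPM from 6.88, 6.35 and 17.4 CPM. Cd68, a lysosomal protein of macrophages, rose instead, from 5.93, 7.06 and 12.5 CPM to 21.6, 17.6, 26.4 and 23.8 CPM (log2 fold change 1.46), and Mrc1 and Fcgr1 were not called. Dendritic cell marker sums overlapped (159 to 248 against 165 to 285 CPM). Most of each sum was Cd74, at 118 to 178 CPM in tumor and 138 to 241 CPM in spleen, which was not called. The lectin Cd209a was at 28.2, 26.3, 43.1 and 24.9 CPM in tumor and no more than 0.119 CPM in spleen. Zbtb46 rose as well (log2 fold change 1.90). The MHC class II chain gene H2-Ab1 fell, from 11, 11.7 and 21.8 CPM to 0.985, 1.3, 1.88 and 1.24 CPM. The gene of its partner chain, H2-Aa, was not called (-1.07, adjusted p = 0.11, limma). Sums for NK cells (10.2 to 20.5 against 16.5 to 25.5 CPM) and CD8 T cells (30.2 to 48.6 against 40.0 to 47.2 CPM) overlapped between the tissues. Taken singly, all 8 NK cell markers had groups that did not overlap in mean log2 CPM, 6 lower and 2 higher in tumor. Of all 12512 genes tested, 7891 had such groups. Klra4, Klra8, Ncr1 and Klra7, among the lower ones, had spleen means of only 0.597, 0.705, 0.942 and 1.45 CPM. For Ncr1 the separation did not hold in CPM, where tumor mouse 4 (0.909) was above spleen mouse 3 (0.868). Erythroid or platelet markers summed to 35.3 to 102 CPM in tumor and 8.09 to 20.9 CPM in spleen. The hemoglobin genes Hba-a1 and Hba-a2 rose (log2 fold changes 2.85 and 3.76). The platelet genes Itga2b and Ppbp fell (-5.55 and -2.59), and Alas2 and Pf4 were not called. Fibroblast markers summed to 88.2 CPM in tumor mouse 2 and to between 19.7 and 36.6 CPM in the other tumor samples. In spleen they summed to 9.67 to 11.5 CPM. In tumor mice 1, 3 and 4, Fn1 (22.9, 11.1 and 8.19 CPM) and Sparc (4.04, 5.33 and 7.69 CPM) held most of the sum. Of the 8 tested, Dcn, Fn1 and Sparc rose and 5 were not called. Those 5 include Col1a1, Col1a2 and Col3a1, with log2 fold changes of -0.99, -1.17 and 2.78. In bulk samples, fewer cells of a type and less RNA per cell cannot be told apart.

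**Figure D2:**
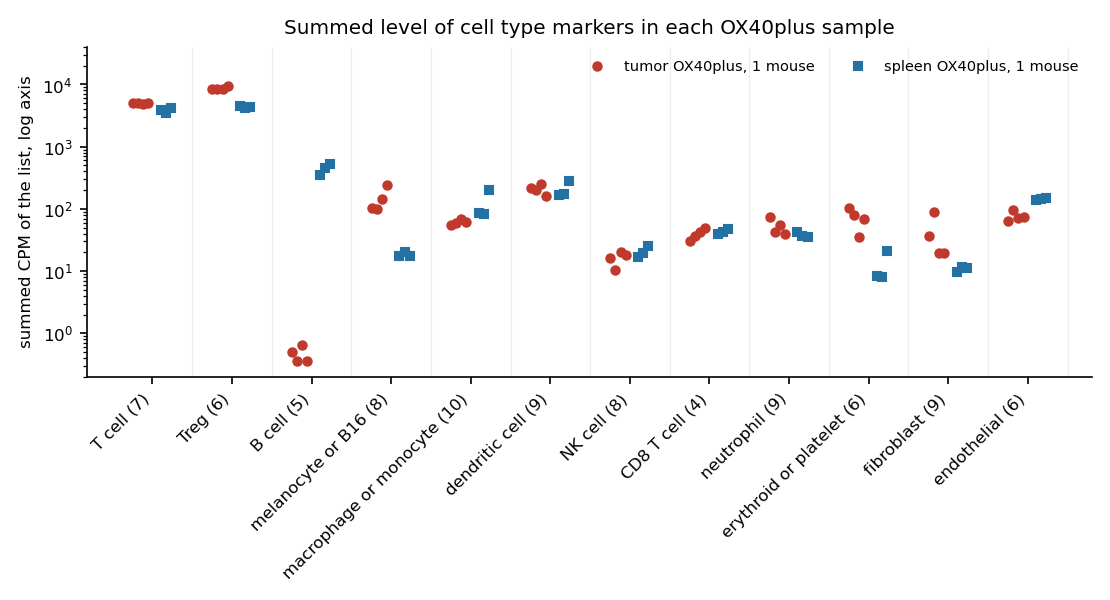
Summed CPM of each cell type marker list (log axis; number of genes in parentheses) in the 4 tumor and 3 spleen OX40plus samples, 1 point per mouse. B cell markers lie between 0.355 and 0.652 CPM in tumor and between 353 and 517 CPM in spleen, and melanocyte markers are higher in all 4 tumor samples than in any spleen sample.

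Some properties of the RNA moved with tissue as well. Ribosomal protein genes took 2.12% to 3.12% of the estimated counts in tumor and 5.53% to 7.70% in spleen. The median log2 fold change fell with the length of a gene's longest transcript, from 0.61 for the 576 genes under 1000 bases to -0.74 for the 1795 genes over 6000 bases, and with its GC content, from 0.16 below 45% to -0.55 above 55%. Removing both trends from each sample left 7971 genes called. Replication-dependent histone genes, whose mRNAs mostly lack a poly(A) tail, summed to 1641 to 2228 CPM in tumor and 52.5 to 65.3 CPM in spleen, a list of 30 drawn up after these values were seen. Most of the tumor sum was 1 gene, Hist1h2ap, at 1388 to 1928 CPM in tumor and 2.73 to 4.52 CPM in spleen. The part of ribosomal and histone RNA, or of the other cell types above, in the results that follow was not tested. The length and GC trends were removed in a separate run. Its values are given for some genes and lists below, and for others with the processing settings.

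The genes that define Tregs did not move as a block. Of 13 core Treg genes tested, 6 rose, 4 fell and 3 were not called, with a median of 0.22. Il2ra, which encodes CD25, was at 1552, 1427, 1399 and 1616 CPM in tumor and 849.7, 838 and 663 CPM in spleen, a log2 fold change of 0.94 (SE 0.10, adjusted p = 6.6e-07). Ctla4, the inhibitory receptor through which Tregs strip costimulatory ligands from presenting cells, was at 3889, 4339.6, 4149 and 4343 CPM in tumor and 869, 804 and 849 CPM in spleen, log2 fold change 2.31 (SE 0.09, adjusted p = 6.1e-12). In both genes the lowest tumor sample was above the highest spleen sample. Entpd1, an enzyme that breaks down extracellular ATP, rose by 1.1 log2 units and the actin-capping gene Capg by 1.48 log2 units.

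Against this, 3 surface markers of resting or thymus-derived Tregs fell. Gpr83, a G protein-coupled receptor, was at 18, 16.1, 19.2 and 14.9 CPM in tumor and 157, 151 and 161 CPM in spleen, log2 fold change -3.2 (SE 0.20, adjusted p = 7.9e-10). Izumo1r, which encodes folate receptor 4, changed by -1.89 log2 units and the semaphorin receptor Nrp1 by -1.67 log2 units, each with no overlap between the groups. Foxp3 was at 52.9, 60.7, 58.5 and 62 CPM in tumor and 32.1, 31.8 and 129.7 CPM in spleen, log2 fold change 0.22 (SE 0.36, adjusted p = 0.60). The 4 tumor samples were close together, while spleen mouse 3 stood far above the other spleen samples; without that sample the difference was 0.89 (adjusted p = 0.0014, limma). Ikzf2, which encodes the Treg factor Helios, was at 859.9, 726, 795 and 1043 CPM in tumor and 960.3, 1019 and 599.8 CPM in spleen, log2 fold change 0.02 (SE 0.16, adjusted p = 0.93), and the groups overlapped; without the length and GC trends it was called higher (0.29, adjusted p = 0.013, limma).

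**Figure D3:**
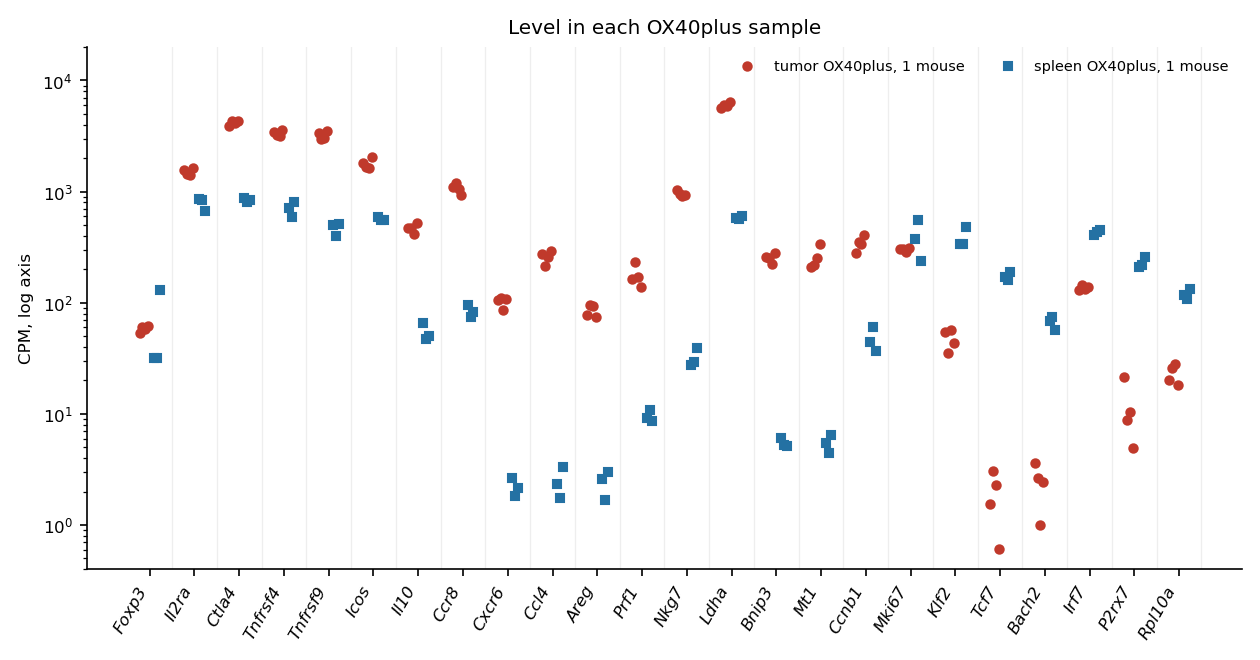
Level of 24 genes (CPM, log axis) in each OX40plus sample, 1 point per mouse, red circles for tumor and blue squares for spleen. For most genes shown the groups do not overlap; Foxp3 and Mki67 are the exceptions, with 1 spleen sample of Foxp3 above all tumor samples.

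Effector Treg genes were mostly higher in tumor: of 17 tested, 14 rose, 1 fell and 2 were not called, with a median of 1.66. Il10, the suppressive cytokine, was at 473, 466, 418 and 526 CPM in tumor and 65.4, 47.5 and 50.6 CPM in spleen, log2 fold change 3.12 (SE 0.15, adjusted p = 3.8e-11). Id2, a regulator that blocks E protein transcription factors, was at 609, 593, 639 and 789 CPM in tumor and 59.4, 46.9 and 56.5 CPM in spleen, log2 fold change 3.6 (SE 0.12, adjusted p = 7.6e-13). Every tumor sample of both genes was far above every spleen sample. Other factors of differentiated effector cells followed: the transcription factors Nfil3 (log2 fold change 2.65), Prdm1 (log2 fold change 1.78) and Tbx21 (log2 fold change 2.84), and the nuclear receptor Pparg, known from tissue Tregs of fat (log2 fold change 2.93). Irf4, a factor that T cell receptor signals induce, was the member that fell, from 133, 137 and 128 CPM to 61.5, 74.1, 78.9 and 48.1 CPM (log2 fold change -1.04). Gata3, at 185, 181, 163 and 149 CPM in tumor and 179.7, 155 and 155 CPM in spleen, and Il1rl1, the receptor of IL-33, at 39.8, 21, 33.5 and 31.5 CPM in tumor and 36.6, 30.5 and 24.4 CPM in spleen, were not called, and their groups overlapped.

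Among TNF receptors, 5 of 14 rose, 4 fell and 5 were not called, with a median of -0.04. The members that rose include Tnfrsf4, Tnfrsf9 and Tnfrsf18, which encode costimulatory receptors, while Cd27, another of that kind, was not called (-0.12, adjusted p = 0.38, limma). Tnfrsf4, the gene of the sorted receptor, was at 3471, 3206, 3166 and 3583 CPM in tumor and 714, 588 and 809.5 CPM in spleen, log2 fold change 2.26 (SE 0.12, adjusted p = 1.7e-10). So although both groups were sorted as OX40 high, tumor samples held 4.8 times the OX40 transcript of spleen samples. Tnfrsf9, which encodes 4-1BB, was at 3383, 2992, 3041 and 3481 CPM in tumor and 499, 399 and 515 CPM in spleen, log2 fold change 2.78 (SE 0.10, adjusted p = 3.2e-12), again with no overlap. Tnfrsf18, which encodes GITR, rose by 1.57 log2 units and Icos, a costimulatory receptor of the CD28 family, by 1.66 log2 units. Tnfrsf25 and Tnfrsf14, which encode the death receptor DR3 and the herpesvirus entry mediator, fell by 2.26 and 2.12 on the log2 scale. Of 13 genes known as markers of tumor Tregs, 10 rose and 1 fell; among them were Ccr8, described with the chemokine receptors, and Il1r2, the decoy receptor for interleukin-1, at 242, 248, 239 and 289 CPM in tumor and 39.1, 27.5 and 42.8 CPM in spleen (log2 fold change 2.82). Within the IL-1 receptor family, Il18r1 and Sigirr fell by 1.0 and 1.0 on the log2 scale.

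Inhibitory receptors split, 5 of 12 rising and 4 falling. Havcr2, which encodes TIM-3, was at 170.4, 156, 162 and 163 CPM in tumor and 15, 16.3 and 9.67 CPM in spleen, log2 fold change 3.61 (SE 0.18, adjusted p = 8.2e-11). Pdcd1, which encodes PD-1, was at 296, 284, 249 and 260.0 CPM in tumor and 120.0, 88.4 and 129.6 CPM in spleen, log2 fold change 1.29 (SE 0.14, adjusted p = 6.7e-07). Lag3, in contrast, was at 90.2, 101, 68.6 and 60.3 CPM in tumor and 227, 183 and 236 CPM in spleen, log2 fold change -1.45 (SE 0.21, adjusted p = 1.7e-05). All 4 tumor samples of Havcr2 and Pdcd1 were above, and all 4 of Lag3 below, every spleen sample. Cd96, a receptor for the poliovirus receptor family, and Btla, the inhibitory partner of Tnfrsf14, fell by 2.76 and 2.52 on the log2 scale.

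Receptors for chemokines changed in both directions, with 10 of 16 higher, 5 lower and 1 not called. Receptors for inflammatory and tissue chemokines made up the largest rises. Cxcr6, the receptor of CXCL16, was at 106, 110.2, 86.3 and 109 CPM in tumor and 2.65, 1.81 and 2.17 CPM in spleen, log2 fold change 5.54 (SE 0.17, adjusted p = 3.8e-13). Ccr8 was at 1089.8, 1195, 1054 and 931 CPM in tumor and 96.3, 74 and 82.7 CPM in spleen, log2 fold change 3.66 (SE 0.12, adjusted p = 7.6e-13). Ccr2, a receptor for monocyte chemokines, rose by 3.65 log2 units. For each of these 3 genes the lowest tumor sample was far above the highest spleen sample. Cxcr5, which directs cells to B cell follicles, was at 13, 13, 4.76 and 9.41 CPM in tumor and 123, 139.8 and 177 CPM in spleen (log2 fold change -3.96), and Cxcr4, a receptor for a chemokine of bone marrow and lymphoid stroma, changed by -2.56 log2 units. Cxcr5 and Cxcr4 are also expressed by B cells, whose markers were nearly absent from the tumor samples; their part in these falls was not tested.

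Genes of recirculation through lymphoid organs were lower on balance: of 10 tested, 6 fell, 3 rose and 1 was not called, with a median of -1.38. Klf2, the factor that drives expression of S1pr1 in resting T cells, was at 54.2, 35.1, 56.9 and 43.7 CPM in tumor and 339, 338 and 477 CPM in spleen, log2 fold change -3.02 (SE 0.16, adjusted p = 1.7e-10). Its relative Klf3 was at 20.4, 14.5, 13.1 and 12.7 CPM in tumor and 227, 229.9 and 198 CPM in spleen, log2 fold change -3.87 (SE 0.15, adjusted p = 7.6e-12). The sphingosine phosphate receptors S1pr4 and S1pr1, the latter of which guides lymphocyte exit into blood and lymph, fell by 2.08 and 0.68 on the log2 scale. Itga4, the integrin alpha 4 chain, was at 32, 22.4, 30.9 and 21.9 CPM in tumor and 375, 434 and 315 CPM in spleen (log2 fold change -3.82). None of these groups overlapped. Ccr7, the receptor that guides T cells into lymph nodes, did not follow, at 107, 164, 167 and 147 CPM in tumor and 102, 107 and 122 CPM in spleen, a small rise of 0.39. With libraries scaled by total count alone, the 3 rises of this list were not called (Ccr7 0.29, adjusted p = 0.060, limma), and the Ccr7 call also ended without tumor mouse 2 or 3 or spleen mouse 1 or 2 (0.32 to 0.37, adjusted p = 0.054 to 0.078). Of the retention and memory molecules, Itgae, which pairs with beta 7 to bind epithelial cadherin, rose by 0.67 log2 units and Cd44 by 0.85 log2 units.

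Factors of resting and memory-precursor T cells were lower in tumor, 9 of 13 falling, 3 rising and 1 not called (median -0.77). Tcf7, which encodes TCF-1, was at 1.56, 3.05, 2.28 and 0.606 CPM in tumor and 169, 160.0 and 191 CPM in spleen, log2 fold change -6.72 (SE 0.36, adjusted p = 1.9e-10). Bach2, a repressor that holds T cells from effector fates, was at 3.62, 2.68, 1.0 and 2.43 CPM in tumor and 68.3, 73.7 and 56.4 CPM in spleen, log2 fold change -4.88 (SE 0.31, adjusted p = 1.4e-09). Tumor mouse 4 was lowest for Tcf7 and mouse 3 for Bach2, and every tumor sample of both genes was far below every spleen sample. The inhibitor of differentiation Id3 fell by 4.34, the interleukin-6 receptor gene Il6ra by 2.98 and Lef1, a partner of TCF-1, by 1.28 on the log2 scale. Bach2 is also expressed by B cells, and that part was not tested. The 3 members that rose were the genome organizer Satb1 (log2 fold change 0.91), the kinase Txk (log2 fold change 1.27) and the progenitor factor Myb (log2 fold change 0.88).

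Secreted mediators gave some of the largest differences. Of 11 chemokine ligands, 9 rose, none fell and 2 were not called, with a median of 2.47. Ccl4, an inflammatory chemokine, was at 274, 216, 260.3 and 293 CPM in tumor and 2.33, 1.77 and 3.31 CPM in spleen, log2 fold change 6.79 (SE 0.20, adjusted p = 3.1e-13). Ccl3, a close relative of it, was at 81.7, 66.9, 85.2 and 84.4 CPM in tumor and 1.98, 2.23 and 4.02 CPM in spleen (log2 fold change 4.92), and Cxcl9, which interferon gamma induces, was at 6.38, 4.71, 7.88 and 4.03 CPM in tumor and at or below 0.397 CPM in spleen. Among 19 cytokines and secreted factors, 9 rose, 5 fell and 5 were not called. Areg, the growth factor amphiregulin by which Tregs support tissue repair, was at 77.4, 95.5, 93.7 and 74.7 CPM in tumor and 2.57, 1.68 and 3.0 CPM in spleen, log2 fold change 5.15 (SE 0.30, adjusted p = 4.4e-10). Spp1, which encodes osteopontin, was at 32.2, 29.7, 38.3 and 15.5 CPM in tumor and between 0.0789 and 0.356 CPM in spleen, log2 fold change 7.11 (SE 0.43, adjusted p = 6.4e-10). Fgl2, a suppressive fibrinogen-like protein, rose by 2.44 log2 units and Penk, the enkephalin precursor, by 1.1 log2 units. Tgfb1 went down, from 327, 312 and 356 CPM to 166, 167, 169 and 122 CPM (log2 fold change -1.1). Macrophages also express Spp1, Ccl3 and Ccl4. Of 10 macrophage or monocyte markers, 6 were lower in tumor, 1 (Cd68) was higher and 3 were not called. The part of such cells in these 3 genes was not tested.

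Genes of the tissue repair program described in Tregs of fat and muscle rose in 12 of 16 cases, with 1 fall (median 1.53). This list shares Il1rl1, Gata3, Pparg, Klrg1, Batf, Nfil3 and Rora with the effector Treg list, so the 2 counts are not independent. Of the shared genes, Il1rl1 and Gata3 were not called. The galectin Lgals1 was at 1956, 1896, 2135 and 2767 CPM in tumor and 256, 288 and 306 CPM in spleen (log2 fold change 2.94), and Fabp5, a fatty acid carrier, at 147, 159.6, 198 and 229.6 CPM in tumor and 27.3, 29.6 and 33.2 CPM in spleen (log2 fold change 2.6). Neither gene's groups overlapped.

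Cytotoxic granule genes were higher in tumor for 8 of 12 members, lower for 1 and not called for 3 (median 1.46). Nkg7, a granule membrane protein, was at 1031, 949, 914 and 929.7 CPM in tumor and 27.5, 29.5 and 39.2 CPM in spleen, log2 fold change 4.91 (SE 0.15, adjusted p = 3.8e-13). Prf1, which encodes perforin, was at 163, 233, 170.5 and 139.7 CPM in tumor and 9.18, 10.9 and 8.71 CPM in spleen, log2 fold change 4.18 (SE 0.17, adjusted p = 8.4e-12). Gzmb, which encodes granzyme B, was at 1683, 1553, 1793 and 2036 CPM in tumor and 219.7, 301 and 217 CPM in spleen, log2 fold change 2.85 (SE 0.15, adjusted p = 1.6e-10). Each of these genes was higher in every tumor sample than in any spleen sample. Serpinb9, the intracellular inhibitor of granzyme B, rose by 1.3 log2 units. Gzma was the member that fell, and tumor mouse 4, at 9.77 CPM, was well above the 1.43 to 1.81 CPM of the other tumor samples. Markers of NK and CD8 T cells, which also express these genes, moved in both directions. Of 8 NK cell markers, 6 fell and 2 rose, and of 4 CD8 T cell markers, 2 fell and 1 rose. Eomes, a factor of both, was at 0 in all 4 tumor samples and at 7.17, 10.7 and 11.7 CPM in spleen, and Cd8a was at 2.71, 3.06, 3.46 and 2.28 CPM in tumor and 9.18, 9.91 and 9.13 CPM in spleen. Cd8b1, the other CD8 chain, rose from 23.5, 22 and 26.0 CPM to 27.4, 30.1, 35.6 and 42.8 CPM (log2 fold change 0.49, adjusted p = 0.030, limma). That call ended with library size alone, with the mouse number as a block and without the length and GC trends. It also ended without tumor mouse 3 or 4 or spleen mouse 1 or 2. The NK receptor gene Klrk1 rose from 2.33, 2.56 and 3.98 CPM to 11.7, 8.58, 16.5 and 11.5 CPM (log2 fold change 2.06). Klrb1b, another NK receptor gene, rose from at most 0.363 CPM to between 1.23 and 4.73 CPM. The part of such cells in the granule genes was not tested.

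Readouts of T cell receptor signals were evenly split, 7 of 15 higher, 7 lower and 1 not called. Egr3, an early growth response factor that restrains activated T cells, was at 3.95, 3.94, 5.06 and 3.14 CPM in tumor and 72.1, 65 and 55.5 CPM in spleen, log2 fold change -4.01 (SE 0.24, adjusted p = 8.1e-10), and Egr2 fell by 1.92 on the log2 scale. In the other direction the retention receptor Cd69 was at 255, 212, 267 and 301 CPM in tumor and 65.5, 64.9 and 73.7 CPM in spleen (log2 fold change 1.92), the transcription factor Irf8 rose by 2.0 log2 units, the phosphatase Dusp5 by 1.54 log2 units and Nr4a1, which encodes Nur77, by 0.56 log2 units. Components of the receptor complex moved in both directions: of 14, 6 rose, 4 fell and 4 were not called, with a median of 0.14. Cd28 rose by 1.1 log2 units, the kinase gene Lck by 0.73 log2 units and Cd3e by 0.51 log2 units, while Cd4 changed by -0.64 log2 units and phospholipase gene Plcg1 by -1.04 log2 units. Without the length and GC trends Cd3e differed by -0.036 (adjusted p = 0.76, limma), and the list held 3 rises and 5 falls.

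In the NF-kB pathway, which TNF receptors such as OX40 engage, 9 of 14 genes rose, 3 fell and 2 were not called. Feedback inhibitors rose. Tnfaip3, which encodes the deubiquitinase A20, was at 662, 893, 757 and 529.8 CPM in tumor and 159.8, 137 and 135 CPM in spleen, log2 fold change 2.28 (SE 0.15, adjusted p = 2.6e-09), and Nfkbia, which encodes the inhibitor I kappa B alpha, rose by 1.69 log2 units. The subunit gene Nfkb1 was at 97.9, 105, 103 and 136 CPM in tumor and 530.4, 496 and 471 CPM in spleen, log2 fold change -2.19 (SE 0.11, adjusted p = 5.9e-11), with all tumor samples below all spleen samples. Of 10 AP-1 and immediate early genes, 8 rose and 1 fell. Atf3, a stress-induced member of the ATF family, was at 9.63, 16.7, 21.9 and 8.9 CPM in tumor and 0.831, 1.01 and 1.1 CPM in spleen (log2 fold change 3.8), Fos rose by 1.66 log2 units and the phosphatase gene Dusp1 by 2.07 log2 units, while Fosb changed by -2.0 log2 units. These genes also respond to tissue dissociation, which the labels state for both tissues, and its part was not tested.

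Among TGF-beta response and retention genes, 5 of 13 rose and 6 fell. Ski, a repressor of SMAD signals, was at 23.8, 18.9, 23.1 and 21.1 CPM in tumor and 321, 299 and 279 CPM in spleen, log2 fold change -3.79 (SE 0.11, adjusted p = 2.1e-13). Smad3, a signal carrier of the pathway, was at 23.7, 15.9, 26.9 and 11.9 CPM in tumor and 188, 179 and 177 CPM in spleen (log2 fold change -3.28). The G protein regulator Rgs2 went up, from 33.7, 22.8 and 44.4 CPM to 229, 271, 252 and 263 CPM (log2 fold change 2.96). No group of these 3 genes overlapped with the other.

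**Figure D4:**
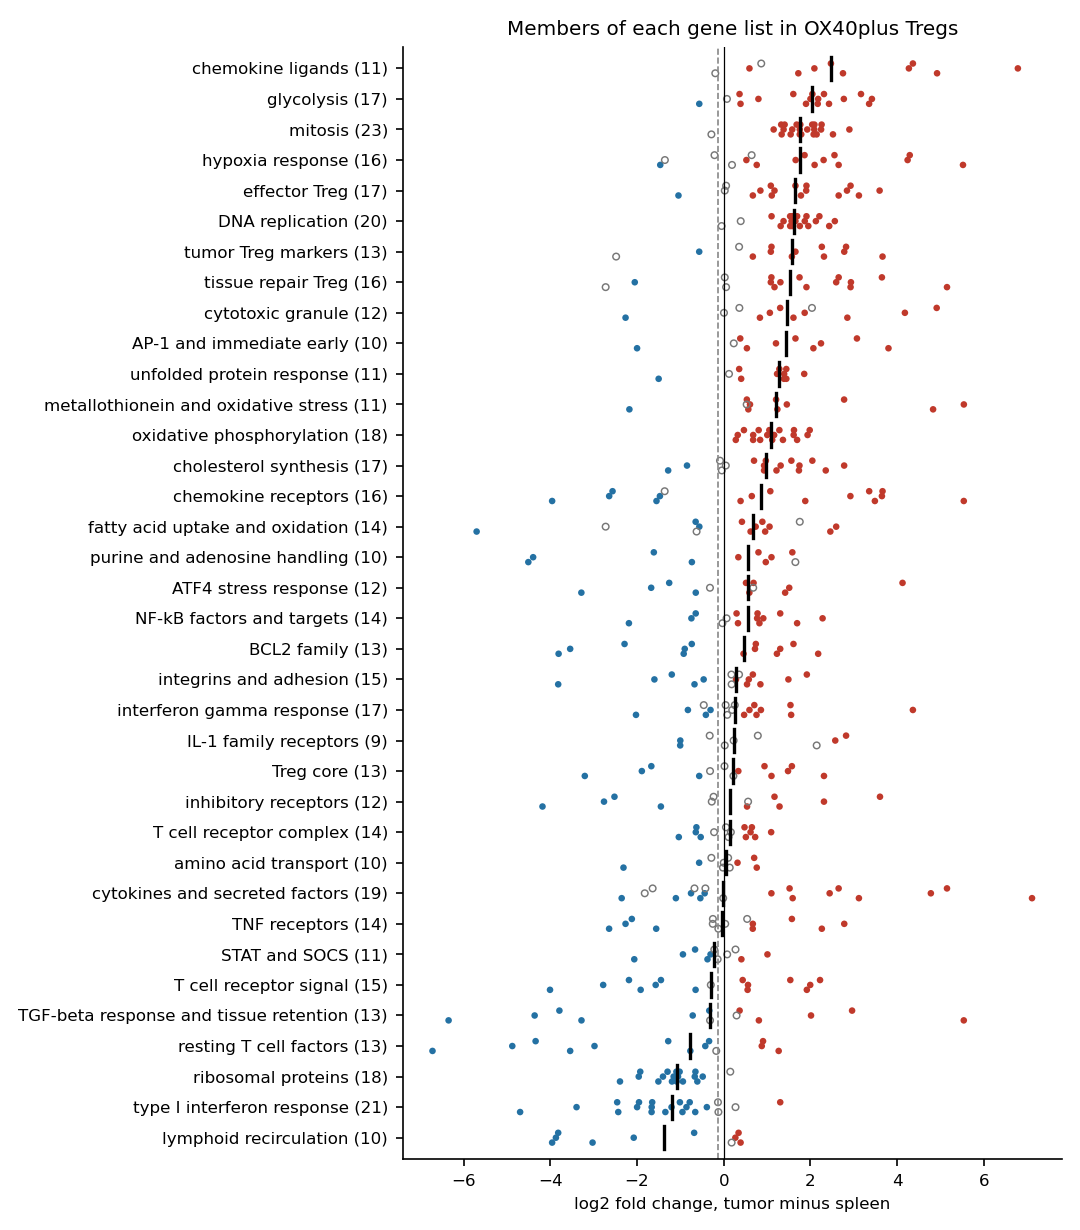
Log2 fold change, tumor minus spleen, of each tested member of the 36 gene lists (number tested in parentheses); filled points were called, open points were not, black bars are list medians and the dashed line is the median of all genes, -0.13. Medians run from -1.38 for lymphoid recirculation to 2.47 for chemokine ligands.

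Genes of sugar metabolism were higher in tumor across the pathway. Of 17 glycolysis genes, 15 rose, 1 fell and 1 was not called, with a median of 2.05. Ldha, which turns pyruvate into lactate, was at 5622, 6025, 5875 and 6346 CPM in tumor and 575, 573 and 600.5 CPM in spleen, log2 fold change 3.35 (SE 0.10, adjusted p = 3.2e-13). Tpi1, triosephosphate isomerase, was at 1372, 1481, 1447 and 1524 CPM in tumor and 133, 129.9 and 146 CPM in spleen, log2 fold change 3.42 (SE 0.09, adjusted p = 1.3e-13). Eno1, an enolase, rose by 2.77 log2 units, the glucose transporter gene Slc2a1 by 2.17 log2 units and Slc16a3, which exports lactate, by 3.17 log2 units. For Ldha and Tpi1, the 4 tumor samples were close together and far above every spleen sample. Slc2a3, another glucose transporter, was at 191, 209, 188 and 155 CPM in tumor and 171, 170.2 and 184 CPM in spleen and was not called, but was called higher without the length and GC trends (0.33, adjusted p = 0.011, limma). The muscle phosphofructokinase gene Pfkm was lower, log2 fold change -0.56 (SE 0.21, adjusted p = 0.029), a call that ended without tumor mouse 1 or 3 or spleen mouse 2 or 3 (-0.59 to -0.46, adjusted p = 0.057 to 0.095), with the 2 OX40plus groups alone (adjusted p = 0.057) and without the length and GC trends (-0.35, adjusted p = 0.14, limma).

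Hypoxia response genes mostly rose too: of 16 genes, 11 rose, 1 fell and 4 (Adm, Car9, Kdm3a and Pdk1) were not called (median 1.76). The list holds targets of hypoxia-inducible factor and also Hif1a, a subunit gene of that factor. Bnip3, a mitophagy receptor, was at 258, 253, 222 and 280.0 CPM in tumor and 6.1, 5.21 and 5.17 CPM in spleen, log2 fold change 5.52 (SE 0.12, adjusted p = 2.8e-14). Hilpda, a lipid droplet protein, was at 183, 213, 206 and 209 CPM in tumor and 10.6, 10.2 and 10.1 CPM in spleen, log2 fold change 4.29 (SE 0.12, adjusted p = 1.8e-13). Ndrg1, a stress-response gene, rose by 2.3 log2 units, and Hif1a, the oxygen-regulated subunit itself, was at 1733, 1660.3, 1445 and 1307 CPM in tumor and 372, 382 and 319 CPM in spleen (log2 fold change 2.1). Every tumor sample exceeded every spleen sample in all 4 genes. Egln1, which encodes an oxygen sensor that marks HIF for decay, was the member that fell (log2 fold change -1.46). B16 cells can also express glycolysis and hypoxia genes; the melanocyte marker sum in tumor was 101 to 239 CPM, and its part was not tested.

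The HIF core motif, ACGTG or GCGTG on either strand (a match on both strands counts on each), was searched in the 250 bases before the RefSeq start of each gene, build GRCm38.p6. It was in all 14 hypoxia promoters with a sequence and in 14 of 16 glycolysis promoters, and in 58.9% of the 9964 promoters of tested genes matched by symbol. The promoter of Bnip3 is shown because that gene had the smallest adjusted p of the hypoxia list. It is chr7:138909507-138909756, minus strand, 5′ to 3′, with matches in capitals.
Bnip3: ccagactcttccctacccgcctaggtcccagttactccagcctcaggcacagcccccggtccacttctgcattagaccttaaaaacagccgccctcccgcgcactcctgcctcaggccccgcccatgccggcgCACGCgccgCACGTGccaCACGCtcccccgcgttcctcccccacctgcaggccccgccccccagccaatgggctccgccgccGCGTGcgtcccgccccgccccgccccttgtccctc
It holds 5 matches, between 35 and 117 bases before the start. A match describes the letters and not a bound site.

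Oxidative metabolism and lipid synthesis were higher too. All 18 genes of oxidative phosphorylation rose (median 1.09), among them the ATP synthase subunit gene Atp5b, at 1648, 1819, 1910.0 and 1861 CPM in tumor and 713, 702 and 815 CPM in spleen (log2 fold change 1.28), and the complex I subunit gene Ndufb8, at 228, 241, 274 and 339 CPM in tumor and 66, 62 and 83.4 CPM in spleen (log2 fold change 1.94). Neither gene's groups overlapped. Without the length and GC trends 14 of the 18 rose and 2 fell. In cholesterol synthesis, 12 of 17 genes rose, 2 fell and 3 were not called (median 0.97). Idi1, an isomerase of the isoprenoid steps, was at 165, 186, 195 and 248 CPM in tumor and 28, 28.7 and 29.1 CPM in spleen, log2 fold change 2.78 (SE 0.12, adjusted p = 2.4e-11), and Sqle, squalene epoxidase, rose by 2.35 log2 units. The lipid droplet coat gene Plin2 rose by 2.46 log2 units, in a list of fatty acid uptake and oxidation with 8 rises and 3 falls among 14 genes.

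Stress pathways gave mixed counts. In the ATF4 response to amino acid shortage, 6 of 12 genes rose and 4 fell. Asns, asparagine synthetase, was at 49.4, 49, 58.3 and 64.1 CPM in tumor and 3.05, 3.36 and 3.12 CPM in spleen, log2 fold change 4.13 (SE 0.20, adjusted p = 7.2e-11), and the serine synthesis gene Psat1 rose by 1.51 log2 units. The factor genes Atf5 and Ddit3, the latter encoding CHOP, fell by 3.28 and 1.67 on the log2 scale. Of 11 metallothionein and oxidative stress genes, 9 rose, 1 fell and 1 was not called (median 1.21). Mt1, a metallothionein that binds zinc and copper, was at 211, 220.2, 251 and 335 CPM in tumor and 5.42, 4.41 and 6.43 CPM in spleen, log2 fold change 5.54 (SE 0.20, adjusted p = 2.2e-12). Mt2 was at 43.3, 48.1, 52 and 70.3 CPM in tumor and 2.45, 1.47 and 1.65 CPM in spleen, log2 fold change 4.83 (SE 0.28, adjusted p = 4.4e-10). Tumor mouse 4 was highest for both, and no groups overlapped. Slc30a1, the zinc exporter that metal also induces, was at 5.75, 4.72, 5.89 and 8.47 CPM in tumor and 29, 28 and 25.5 CPM in spleen (log2 fold change -2.18).

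Metal response elements were searched by their core, TGCACNC or TGCGCNC on either strand. The core was in 5 of 9 promoters of the list, Mt1, Mt2 and Slc30a1 among them, and in 32.8% of all 9964. Mt2 is shown because it holds 3 matches, in capitals, in the 250 bases before its RefSeq start (chr8:94172368-94172617, plus strand).
Mt2: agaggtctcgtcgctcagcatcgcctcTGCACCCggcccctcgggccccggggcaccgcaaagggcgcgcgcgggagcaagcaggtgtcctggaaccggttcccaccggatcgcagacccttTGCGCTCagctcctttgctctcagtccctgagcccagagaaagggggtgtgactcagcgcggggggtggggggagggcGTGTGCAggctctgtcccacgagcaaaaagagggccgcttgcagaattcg
Slc30a1 shares this core with Mt1 and Mt2, while its level went the other way.

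Most genes of the unfolded protein response of the endoplasmic reticulum were higher in tumor: of 11 tested, 9 rose, 1 fell and 1 was not called, with a median of 1.28. Pdia6, a disulfide isomerase, was at 432, 443, 514 and 501 CPM in tumor and 125, 122 and 144 CPM in spleen, log2 fold change 1.86 (SE 0.10, adjusted p = 1.6e-10). Hspa5, which encodes the chaperone BiP, and Hsp90b1, which encodes GRP94, both rose by 1.39 log2 units. Xbp1, the transcription factor of the response, rose by 1.44 log2 units. Hyou1, a further chaperone, was the member that fell, from 121, 116 and 109 CPM to 39.7, 54.4, 48.4 and 26.7 CPM (log2 fold change -1.5).

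The ER stress response element, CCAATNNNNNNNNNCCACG on either strand, was in 6 of 10 promoters of this list (Hspa5, Hsp90b1, Dnajc3, Pdia6, Canx and Creld2) and in 0.151% of all promoters, 15 of 9964. The promoters of Hspa5 (chr2:34771840-34772089, plus strand) and Pdia6 (chr12:17266339-17266588, plus strand) are printed for comparison, with the element in capitals, 65 and 98 bases before the start.
Hspa5: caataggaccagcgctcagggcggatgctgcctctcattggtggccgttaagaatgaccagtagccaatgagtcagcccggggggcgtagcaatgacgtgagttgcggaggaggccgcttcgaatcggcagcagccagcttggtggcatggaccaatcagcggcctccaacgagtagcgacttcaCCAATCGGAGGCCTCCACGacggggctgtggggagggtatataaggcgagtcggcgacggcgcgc
Pdia6: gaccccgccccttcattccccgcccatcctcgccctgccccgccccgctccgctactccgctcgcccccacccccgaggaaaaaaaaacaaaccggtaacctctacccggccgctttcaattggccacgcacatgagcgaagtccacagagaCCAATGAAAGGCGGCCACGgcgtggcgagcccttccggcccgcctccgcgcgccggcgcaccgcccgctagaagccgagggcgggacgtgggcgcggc
Of the 6 genes with the element, 5 rose and Dnajc3, at 0.12, was not called, beside 9 rises among the 11 genes of the whole list.

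Cell cycle genes were higher in tumor almost throughout. Of 20 DNA replication genes 18 rose and none fell (median 1.62), and of 23 mitosis genes 22 rose and none fell (median 1.77). Mcm6, a subunit of the replicative helicase, was at 858, 829, 877 and 823 CPM in tumor and 246, 256 and 250.4 CPM in spleen, log2 fold change 1.76 (SE 0.08, adjusted p = 2.9e-11). Rrm1, a subunit of the enzyme that makes deoxynucleotides, was at 498, 604, 531 and 521 CPM in tumor and 119, 147 and 107 CPM in spleen (log2 fold change 2.13). Ccnb1, which encodes cyclin B1, was at 283, 355, 341 and 411 CPM in tumor and 44.1, 60.3 and 36.9 CPM in spleen, log2 fold change 2.9 (SE 0.17, adjusted p = 5.3e-10). Birc5, which encodes survivin, rose by 2.25 log2 units and Ccna2, which encodes cyclin A2, by 2.52 log2 units. No tumor sample of these genes was as low as any spleen sample.

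Mki67, the usual proliferation marker, was the mitosis gene not called, at 306, 307, 286 and 312 CPM in tumor and 378, 559 and 236 CPM in spleen, log2 fold change -0.28 (SE 0.22, adjusted p = 0.27). Its 3 spleen samples lay far apart, mouse 3 lowest and mouse 2 highest, with all 4 tumor samples between them; without spleen mouse 3 it was lower in tumor (-0.60, adjusted p = 0.010, limma). The licensing factor gene Cdt1 was at 60.7, 87.6, 89.6 and 58.6 CPM in tumor and 69.4, 79.1 and 77.5 CPM in spleen and was not called, and without the length and GC trends it was higher in tumor (0.37, adjusted p = 0.0097). Of the 30 histone genes, 23 rose and 1 fell, most of all Hist1h2ap, an H2A gene, at 1388, 1496, 1928 and 1909 CPM in tumor and 3.59, 2.73 and 4.52 CPM in spleen. Histone mRNA without a poly(A) tail is counted only where the library preparation carries it, and how far this differed between the tissues was not tested. Near-identical histone copies can share reads, so the single gene is uncertain.

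Type I interferon response genes moved against this direction: of 21 tested, 17 fell, 1 rose and 3 were not called, with a median of -1.20. Irf7, the factor that amplifies interferon production, was at 130.1, 145, 134 and 139 CPM in tumor and 411, 430.0 and 449 CPM in spleen, log2 fold change -1.65 (SE 0.11, adjusted p = 2.5e-09). Oas3, a sensor of double-stranded RNA, was at 25.1, 27.4, 29 and 17.2 CPM in tumor and 129, 175 and 98.7 CPM in spleen, log2 fold change -2.43 (SE 0.21, adjusted p = 5.0e-08). Ifit3, an inhibitor of viral translation, was at 51.6, 29.9, 36.6 and 41.8 CPM in tumor and 142, 155 and 159 CPM in spleen, log2 fold change -1.95 (SE 0.18, adjusted p = 1.1e-07). All tumor samples of these 3 genes were below all spleen samples. Isg20, an exonuclease, was the member that rose (log2 fold change 1.3). Interferon gamma response genes were mixed, 8 of 17 higher and 4 lower; the guanylate-binding protein gene Gbp3 rose by 1.56 log2 units, the immunity-related GTPase gene Igtp by 1.54 log2 units and Irf1 by 0.71 log2 units.

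The core of the interferon-stimulated response element, GAAANNGAAA on either strand, was in 7 of 16 promoters of the type I list and in 3.32% of all 9964. That of Ifit3 (chr19:34583279-34583528, plus strand) is given because it holds 2 copies, in capitals, on the opposite strand.
Ifit3: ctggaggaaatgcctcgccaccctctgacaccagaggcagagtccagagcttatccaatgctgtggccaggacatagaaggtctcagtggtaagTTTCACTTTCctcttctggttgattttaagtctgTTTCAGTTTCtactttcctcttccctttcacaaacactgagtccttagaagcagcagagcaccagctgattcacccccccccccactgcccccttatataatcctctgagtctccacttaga
The copies begin 156 and 122 bases before the start.

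Ribosomal protein genes were lower in tumor for 17 of 18 tested, with a median of -1.09. Rpl8 was at 379, 386, 485 and 499.7 CPM in tumor and 1557, 1398 and 2055 CPM in spleen, log2 fold change -1.92 (SE 0.15, adjusted p = 1.0e-08). Rpl10a was at 20.1, 26, 28.3 and 18.3 CPM in tumor and 117, 108 and 134 CPM in spleen, log2 fold change -2.39 (SE 0.17, adjusted p = 4.6e-09). Rpl5, at 39.1, 40.3, 46.6 and 48.8 CPM in tumor and 37.2, 39.4 and 40.7 CPM in spleen, was not called, and without the length and GC trends it fell by 0.62 on the log2 scale (adjusted p = 2.7e-05, limma). Ribosomal protein genes have many processed pseudogenes, and how reads were divided among copies is uncertain.

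Nucleotide sensing and survival genes also changed. P2rx7, the ATP-gated channel through which extracellular ATP or NAD kills Tregs, was at 21.3, 8.81, 10.4 and 4.93 CPM in tumor and 208, 217 and 255 CPM in spleen, log2 fold change -4.51 (SE 0.31, adjusted p = 3.3e-09). Art2b, the ADP-ribosyltransferase that opens that channel, was at 11.9, 9.56, 6.05 and 10.2 CPM in tumor and 181, 186 and 213 CPM in spleen, log2 fold change -4.4 (SE 0.18, adjusted p = 8.5e-12). Both groups were apart in both genes, with tumor mouse 4 lowest for P2rx7 and mouse 3 for Art2b. Slc28a2, a nucleoside transporter, fell by 1.61 on the log2 scale. All 13 BCL2 family genes were called, 7 higher and 6 lower. The survival genes diverged: Bcl2 was at 12.5, 11.5, 14.4 and 10.6 CPM in tumor and 144, 158 and 126 CPM in spleen, log2 fold change -3.54 (SE 0.16, adjusted p = 2.3e-11), and Mcl1 fell by 0.74 on the log2 scale, while Bcl2l1, which encodes BCL-XL, rose by 1.3 log2 units. Of 11 STAT and SOCS genes, 2 rose and 5 fell (median -0.22), but without the length and GC trends 5 rose and 3 fell (median 0.19); Stat3 rose by 1.01 log2 units and the repressor gene Bcl6 fell by 2.06 on the log2 scale.

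The genes with the largest differences were in part those of other cell types. Among the 12 highest were Tyrp1, Cd209a, Hist1h2ap, Spp1 and Ccl4, given above. Mgl2, a lectin of macrophages and dendritic cells, was at 9.03, 7.36, 15.6 and 9.87 CPM in tumor and 0.0396, 0.126 and 0.376 CPM in spleen. Tsix, a noncoding transcript of the X inactivation centre, was at 70.8, 56.2, 70.3 and 99.4 CPM in tumor and 0.352, 0.682 and 0 CPM in spleen; no label states whether counting used strand, so its reads and those of the gene on the opposite strand cannot be told apart. Snord13, a small nucleolar RNA, was at 7.66, 9.17, 10.5 and 15.1 CPM in tumor and at 0 in all 3 spleen samples, at least 264-fold higher (against 3 counts over the spleen group). Pcsk1, a prohormone convertase, was at 32.2, 22.3, 26.9 and 14.2 CPM in tumor and 0.237, 0.168 and 0.473 CPM in spleen (log2 fold change 6.27), and Ermn, a cytoskeletal protein of myelinating cells, at 15.4, 24.9, 18.4 and 30.5 CPM in tumor and 0.41, 0.784 and 0 CPM in spleen (log2 fold change 6.55). Kdm5d, a Y-linked demethylase gene looked up after these values were seen, was at 2.53, 2.43, 2.95 and 2.65 CPM in tumor and 5.3, 5.21 and 6.36 CPM in spleen, so it was detected in every sample. Among the 12 lowest were Cr2, the complement receptor CD21, at 0.0347, 0.0368, 0.0865 and 0.189 CPM in tumor and 42.1, 63.4 and 56 CPM in spleen, Ms4a1, which encodes CD20, at 0.142, 0.167, 0.521 and 0.0487 CPM in tumor and 70.5, 93 and 109 CPM in spleen, and Fcer2a, which encodes CD23, at 0.321, 0.115, 0.0449 and 0.117 CPM in tumor and 47.6, 51.1 and 70.3 CPM in spleen, all of them B cell genes.

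The mice of a tissue differed little beside the difference between tissues. For genes at or above 10 CPM, the median SD of log2 CPM was 0.20 over the 4 tumor samples (7742 genes) and 0.15 over the 3 spleen samples (8168 genes), and it passed 1 for 7 and 11 genes. Of the called genes, 7465 of 8072 had groups that did not overlap, and 7891 of all 12512 genes tested did so.

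The tumor-spleen difference of OX40plus cells was set against that of OX40minus cells, the GFP+ cells with low OX40 of the same tissues, by an interaction term in the same fit. It differed at 1365 genes (10.9%), in the positive direction (higher in tumor, relative to spleen, in OX40plus than in OX40minus cells) for 567 and in the negative for 798. Relative log expression factors gave 713 and 728, and library size alone 477 and 998. Leaving out spleen OX40plus mouse 1 lowered the total to 766. Several activation and effector genes had smaller positive differences in OX40plus cells. Tnfrsf4 differed between tissues by 2.26 log2 units in OX40plus and by 2.96 in OX40minus cells, an interaction of -0.69 (SE 0.17, adjusted p = 0.017). Tnfrsf9 (2.78 and 4.45), Ccr8 (3.66 and 5.15), Il10 (3.12 and 4.8), Klrg1, an inhibitory lectin of effector cells (1.17 and 2.53), Pdcd1 (1.29 and 2.5), Icos (1.66 and 2.37), Tnfrsf18 (1.57 and 2.31) and Ctla4 (2.31 and 2.99) were called in the same direction. The opposite held for Il2ra, which rose by 0.94 log2 units in OX40plus and differed by 0.15 in OX40minus cells.

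The positive differences of Prf1 and Ccl4 were larger in OX40plus cells (4.18 against 2.07, and 6.79 against 4.69), and so was that of Spp1 (7.11 against 2.44). Tcf7 and Klf2 had larger negative differences in OX40plus cells, with log2 fold changes of -6.72 against -3.3 for Tcf7 and -3.02 against -1.54 for Klf2. Of the 21 type I interferon genes, 15 had a called negative interaction: the log2 fold change of Ifit3 was -1.95 in OX40plus and -0.15 in OX40minus cells, an interaction of -1.80 (SE 0.26, adjusted p = 0.00049), and that of Irf7 was -1.65 and -0.81. Egr3 was at -4.01 and -2.33, and 11 of 15 T cell receptor signal genes had a called negative interaction. For 12 of 18 ribosomal protein genes the interaction was positive and called, as for Rpl8, at -1.92 and -2.79. Of the 23 mitosis genes, 1 had a called interaction. The OX40minus difference was not tested on its own. Foxp3, Lag3, Gzmb, Penk and Ccr7 had no called interaction.

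The largest interactions included genes that went opposite ways in the 2 gates. Hmox1, heme oxygenase 1, was 0.53 in OX40plus and -2.86 in OX40minus cells; the rise in OX40plus cells was not called without tumor mouse 1 or spleen mouse 1 or 2 (0.44 to 0.48, adjusted p = 0.053 to 0.079), with library size alone (0.43, adjusted p = 0.051), with the mouse number as a block (0.46, adjusted p = 0.051) or without the length and GC trends (0.25, adjusted p = 0.25, limma). Slc11a1, a metal transporter of phagocytes, was 1.44 and -2.49. F13a1, a coagulation factor subunit made by macrophages, was -2.11 and 1.75. Galnt3, a glycosyltransferase, was higher in tumor in both gates, by 4.73 and 1.1 log2 units. Btk, a kinase of B cell and myeloid signals, was at 14.8, 17 and 23.6 CPM in spleen and no more than 1.21 CPM in tumor in OX40plus cells, with differences of -6.79 and -2.22. Slc11a1 and F13a1 are known from myeloid cells and Btk from B cells, and the part of such cells was not tested.

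**Figure D5:**
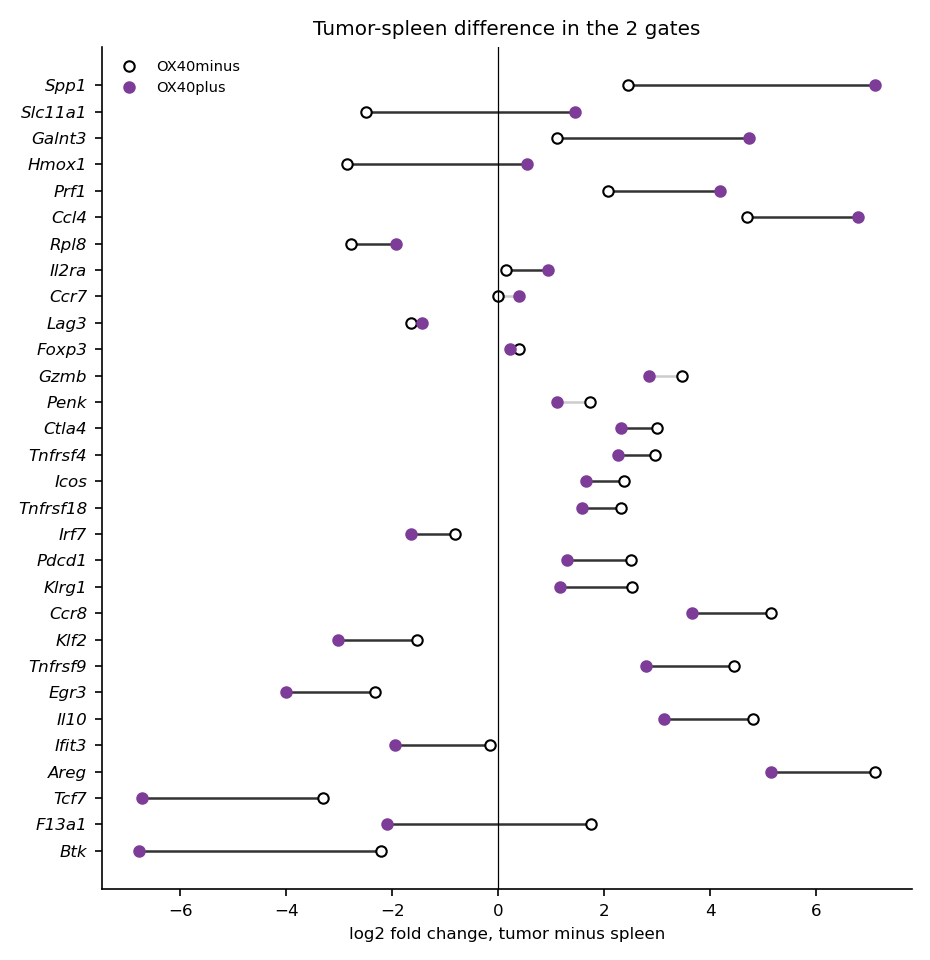
Log2 fold change, tumor minus spleen, in OX40plus (filled) and OX40minus (open) cells for 30 genes, joined by a dark line where the interaction was called and a pale line where it was not. Tcf7 lies at -6.72 and -3.3, and Ccr8 at 3.66 and 5.15.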

How the data were processed

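RNA of sorted Tregs was sequenced from 28 libraries, 2 for each of 14 mouse samples. The deposited values are log2 CPM, in the form of limma's voom with 0.5 added per count, as read from the values. The tools named in the submitters' processing notes are kallisto, limma and bcl2fastq 2.19, with build mm10; the authors' gene summary, scaling factor, gene filter and strand setting are stated in no label or file header. Counts were estimated by inverting the formula, and the 2 libraries of a mouse were averaged. The table held 13103 genes; 12512 with at least 0.382 CPM in 3 or more samples and 15 counts in all were tested.

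limma 3.58.1 (R 4.3.3) was fitted to all 14 samples with 1 term per group and an empirical Bayes trend, with Benjamini-Hochberg adjustment and calls at 0.05; all adjusted p-values come from it. The script was tested on simulated data. Same-numbered tumor and spleen samples did not deviate together (r = 0.03, 0.01 and 0.03 across genes), so the numbers were not used as pairs. Alternatives were other scaling factors, no filter, 2 added per count, voom weights, the OX40plus groups alone, the mouse number as a block, each replicate left out and, chosen after seeing the data, removal of length and GC trends.

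The members, the 36 gene lists and the 15 marker lists were chosen with earlier results of these data known. Some lists share genes. Genes were named by rule: the 12 highest and lowest differences, up to 4 members of each list by adjusted p, up to 3 markers of each cell type by level, the extreme interactions and 22 genes of the Treg literature; some genes so named are not reported here. Chosen after their values were seen were Ikzf2, Capg, Prdm1, Tbx21, Pparg, Irf4, Gata3, Tnfrsf14, Cxcr4, Cxcr5, Itgae, Id3, Lef1, Satb1, Txk, Myb, Tgfb1, Gzma, Egr2, Nr4a1, Cd4, Fosb, Slc2a1, Pfkm, Slc2a3, Egln1, Ddit3, Hyou1, Hspa5, Hsp90b1, Xbp1, Dnajc3, Slc30a1, Cdt1, Ccna2, Mki67, Ifit3, Isg20, Mcl1, Rpl5, H2-Ab1, Dct, C1qa, Mrc1, Fcgr1, Cd27 and Kdm5d, and the lists of histones and small non-coding RNAs. So were Col1a1, Col1a2, Dcn, H2-Aa, Ncr1, Klra4, Klra7, Klra8, Alas2, Pf4, Ppbp, Adm, Car9, Kdm3a and Pdk1. Promoters are from RefSeq, build GRCm38.p6, and 9964 tested genes were matched by symbol.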

Additional observations from a re-analysis of the deposited data

Results flagged for a closer look

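In the 4 tumor OX40plus samples, 174 quantities were tested for a sample far from the other three, and 9 had one; chance gives this in about 1 of 20 groups. Mouse 4 was low for Tgfb1, the gene of transforming growth factor beta 1, at 122 CPM (others 166 to 169 CPM), low for Egr2 at 8.33 CPM (others 15.5 to 16.8 CPM), high for Gzma, which encodes granzyme A, at 9.77 CPM (others 1.43 to 1.81 CPM), and high for the summed Treg markers, at 9408 CPM (others 8518 to 8583 CPM). Mouse 3 was high for Btk at 1.21 CPM (others at most 0.151 CPM). Mouse 1 was low for Cd96 at 10.1 CPM (others 17.3 to 18.7 CPM), high for Txk at 135 CPM (others 113 to 116 CPM) and high for Atf5 at 1.89 CPM (others 1.27 to 1.34 CPM). Mouse 2 was low for Tnfrsf25 at 11.5 CPM (others 21.7 to 23.0 CPM).

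The tumor-spleen difference of OX40plus cells differed from that of OX40minus cells, by the interaction term in limma, for 25 of the genes whose comparison is given. Negative values, in log2 units, were -0.69 for Tnfrsf4, -0.67 for Ctla4, -0.74 for Tnfrsf18, -0.71 for Icos, -1.68 for Il10, -1.36 for Klrg1, -1.67 for Tnfrsf9, -1.21 for Pdcd1, -1.48 for Ccr8 and -1.95 for Areg, all with higher means in tumor in both gates. Among genes that fell in OX40plus cells, values were -1.49 for Klf2, -3.41 for Tcf7, -1.67 for Egr3, -0.84 for Irf7, -1.80 for Ifit3, -4.58 for Btk and -3.86 for F13a1. Positive values were 0.80 for Il2ra, 2.09 for Ccl4, 4.67 for Spp1, 2.11 for Prf1, 0.86 for Rpl8, 3.40 for Hmox1, 3.93 for Slc11a1 and 3.63 for Galnt3. For Areg the call ended with voom weights (-1.96, adjusted p = 0.062).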

How the results depend on the processing

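Genes called between tumor and spleen numbered 7302 to 8143 over all settings. Leaving out each OX40plus replicate gave 7302 to 8051 calls (3494 to 3787 higher, 3808 to 4272 lower). The interaction gave 766 to 1628 calls (291 to 672 positive, 475 to 956 negative) when each was left out; the lowest counts came without spleen OX40plus mouse 1. With the mouse number as a replicate block, 7914 genes were called and 1256 interactions; same-numbered samples did not deviate together, and the labels used here do not say whether they come from 1 animal, in the 2 tissues or in the 2 gates of a tissue. Scaling by library size alone moved the median of all genes by -0.10 and gave 3478 rises and 4665 falls. With the length and GC trends removed, 3 named genes turned direction: Cd3e to -0.036 (adjusted p = 0.76), Cdt1 to 0.37 (adjusted p = 0.0097) and Rpl5 to -0.62 (adjusted p = 2.7e-05). Ikzf2 and Slc2a3 gained a call and Hmox1 and Pfkm lost theirs. The CD8 marker Cd8b1, outside the 163 named genes followed here, also lost its call. Of these 163 genes, 156 kept their direction and side of the threshold. Of 102 counts of rises or falls within lists, 15 moved clearly and 87 did not. List medians went from -0.31 to 0.37 for TGF-beta response and tissue retention, and from -0.30 to 0.19 for T cell receptor signals. They went from 1.46 to 0.77 for cytotoxic granule genes and from 1.21 to 0.53 for metallothionein and oxidative stress genes. The T cell markers went from 4 rises and 1 fall to 1 rise and 3 falls. Depth limits genes near 0.104 to 0.13 CPM, the level of 3 counts in a sample.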

Other observations

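Lists not described above gave the following counts. Of 15 integrin and adhesion genes, 7 rose, 5 fell and 3 were not called; Itga1, a collagen receptor chain, rose by 1.92 log2 units, Itgav by 1.49, and Itga6 and Itgal changed by -1.60 and -1.20. Of 10 amino acid transport genes, 3 rose and 2 fell, the heavy and light chains Slc3a2 and Slc7a5 of one exchanger by 0.76 and 0.70 upward and Slc43a1 by -2.31. Of 9 IL-1 family receptors, 2 rose and 2 fell, and Il1rn, the receptor antagonist, rose by 2.57. Bcl2a1d and Bcl2a1a, near-identical copies of the survival gene A1, rose by 2.18 and 1.61, and as copies they can share reads. These genes were chosen after their values were seen.

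Of 8 neutrophil markers tested, 2 rose and 3 fell. Ltf and Mmp9 rose by 3.63 and 1.11, and S100a9, S100a8 and Csf3r differed by -7.09, -5.56 and -2.30. Among 8 NK cell markers 2 rose and 6 fell, and among 4 CD8 T cell markers 1 rose and 2 fell. Of 8 melanocyte markers 7 rose, of 8 fibroblast markers 3 rose, and of 9 dendritic cell markers 2 rose and 1 fell. Of 5 endothelial markers 1 fell, of 3 mast cell or basophil markers 2 fell, of 6 erythroid or platelet markers 2 rose and 2 fell. Neither the 2 plasma cell markers (Derl3 -0.40 and Sdc1 -0.39) nor the 2 keratinocyte markers (Dsp 0.094 and Krt10 0.0042) were called by limma, all with adjusted p-values of 0.58 or more and none at an unadjusted p under 0.05. Of 10 small non-coding RNAs, 5 rose and 4 fell; their sum was 21.2 to 40.6 CPM in tumor and 5.24 to 6.96 CPM in spleen.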
